A study of Homo sapiens with 6 samples.

Results

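The genes described here encode the FOS, JUN and BATF proteins, the basic leucine zipper subunits from which the transcription factor AP-1 is assembled. The 10 members were FOS, FOSB, FOSL1, FOSL2, JUN, JUNB, JUND, BATF, BATF2 and BATF3, taken by name from the 20033 protein-coding genes of the annotation (GENCODE version 44, hg38). Of the 30784 deposited peaks of histone H3 acetylated at lysine 27 (H3K27ac), 50 overlapped the bodies of these genes or lay within 50 kb of them. No peak belonged to the windows of more than 1 member. A gene's promoter peaks were those that came, at their nearest edge, within 3 kb of a start site of any of its transcripts.

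Chromatin immunoprecipitation followed by sequencing (ChIP-seq) for H3K27ac was performed in SU-CCS-1 cells, an established line grown from a human clear cell sarcoma (CCS). All samples carried the fusion gene EWSR1::ATF1, no treatment was named, and the series held 3 H3K27ac samples and 3 input samples, input being sonicated chromatin sequenced without immunoprecipitation. One list of peak positions was deposited for all samples together, with no peak height, read count or value per replicate, so the depth of each sample could not be read from it and no difference below could be tested against replicate error. RNA was not measured in these samples, so the line's defining markers could not be checked by expression, and a gene without a peak was below the threshold of the peak caller rather than shown to lack acetylation.

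AP-1 binds DNA as a dimer. FOS proteins need a JUN partner, JUN proteins can also pair with each other, and BATF proteins, best known from lymphocytes and dendritic cells, pair with JUN proteins. Dimers of FOS and JUN bind TGAGTCA, called the AP1 motif here, whereas the longer TGACGTCA is the ATF/CREB motif, bound by ATF1 and its relatives, and the fusion protein keeps the DNA-binding domain of ATF1. FOS, FOSB, JUN and JUNB are textbook immediate early genes, switched on within minutes of a growth or stress signal through serum response factor (SRF), which binds CArG boxes, and through ATF/CREB proteins. H3K27ac marks active promoters and enhancers.

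The stretches below are shown because they hold every CArG box and TGANNTCA match in the 350 bases upstream of the members searched, or AP1 and ATF/CREB matches in peaks farther upstream of JUNB, FOSL1 and FOSL2. They were read from hg38 in the direction of transcription of the gene, and positions are counted backwards from the base before the start of the canonical transcript. In the 4 promoter stretches, capitals mark the CArG box, TGACGTCA, other sequences of the form TGANNTCA, and TGACG or its reverse complement CGTCA. FOS was read from chr14:75278488-75278787 (plus strand) and FOSB from chr19:45467656-45467955 (plus strand), of which 275 of 300 bases lay in a peak. JUND was read from chr19:18281653-18281842 (minus strand) and JUN from chr1:58784088-58784187 (minus strand), each wholly within a peak.
FOS: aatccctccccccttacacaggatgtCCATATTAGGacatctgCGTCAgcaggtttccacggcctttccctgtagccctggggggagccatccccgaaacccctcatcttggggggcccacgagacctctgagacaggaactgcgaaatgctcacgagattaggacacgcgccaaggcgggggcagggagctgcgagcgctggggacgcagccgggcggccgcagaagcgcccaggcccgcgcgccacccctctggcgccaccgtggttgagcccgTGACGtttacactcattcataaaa
FOSB: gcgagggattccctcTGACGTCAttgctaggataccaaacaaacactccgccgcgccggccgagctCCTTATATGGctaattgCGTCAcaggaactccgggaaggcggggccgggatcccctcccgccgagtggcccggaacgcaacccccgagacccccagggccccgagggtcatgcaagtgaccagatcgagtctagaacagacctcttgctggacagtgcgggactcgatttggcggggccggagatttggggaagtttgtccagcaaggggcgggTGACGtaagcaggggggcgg
JUND: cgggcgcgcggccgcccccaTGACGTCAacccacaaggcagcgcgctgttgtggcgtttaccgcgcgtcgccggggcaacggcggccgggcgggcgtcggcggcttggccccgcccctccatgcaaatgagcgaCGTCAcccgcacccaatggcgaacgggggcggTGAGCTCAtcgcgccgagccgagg
JUN: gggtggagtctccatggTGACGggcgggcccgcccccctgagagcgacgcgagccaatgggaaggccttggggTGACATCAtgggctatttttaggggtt

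In the 3 distal stretches, each wholly within a peak, capitals mark the AP1 motif, written TGACTCA on the other strand, or TGACGTCA. JUNB was read from chr19:12783046-12783175 (plus strand), FOSL1 from chr11:65911573-65911632 (minus strand) and FOSL2 from chr2:28359364-28359423 (plus strand). The stretch upstream of JUNB holds 3 AP1 matches and that upstream of FOSL1 holds 2, and the stretch upstream of FOSL2 holds 1 TGACGTCA.
JUNB: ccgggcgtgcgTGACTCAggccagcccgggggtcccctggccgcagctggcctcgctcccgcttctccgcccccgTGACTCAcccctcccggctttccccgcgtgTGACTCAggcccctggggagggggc
FOSL1: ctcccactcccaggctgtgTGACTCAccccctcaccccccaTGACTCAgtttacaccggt
FOSL2: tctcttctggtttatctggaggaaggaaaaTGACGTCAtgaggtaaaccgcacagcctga

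The first comparison asked which AP-1 genes carried H3K27ac at their promoters. All 4 FOS family genes and all 3 JUN family genes had a promoter peak, whereas in the BATF family BATF2 had one and BATF and BATF3 had none. This gave 8 of 10 members, or 80% (95% Wilson interval 49.0 to 94.3), beside 63.4% of protein-coding genes (12701 of 20033, interval 62.7 to 64.1). The interval for 10 genes spans the share of all coding genes, so the count alone does not set the members apart. The members differed more in how much sequence around the start was covered. Over the 1 kb downstream of the canonical start, peaks covered 68.9% of bases in the members and 44.1% in all coding genes, and over the 1 kb upstream they covered 56.9% and 36.3%. Over 3 kb the coverage was 45.8% upstream and 45.6% downstream in the members, beside 16.3% and 20.2% in all coding genes. These are means over 10 and 20033 genes of 1 list and are given as a description.

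**Figure D1:**
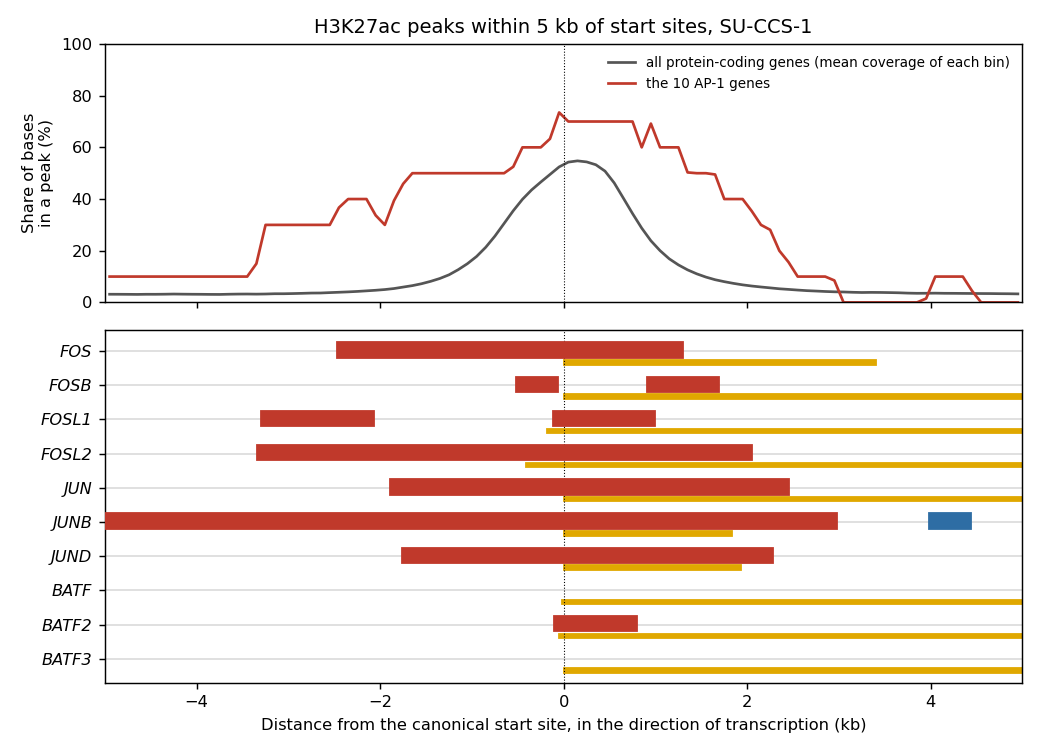
Upper plot, the percentage of bases covered by H3K27ac peaks (y axis) in bins within 5 kb of canonical start sites (x axis, kb) for all 20033 protein-coding genes (grey) and the 10 AP-1 genes (red). Lower plot, the peaks of each member (red, its own promoter peaks, blue, a promoter peak of another coding gene) above its gene body (yellow). A red bar spans the start site of FOS, FOSL1, FOSL2, JUN, JUNB, JUND and BATF2, FOSB has a peak on each side of it, and BATF and BATF3 have none.

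FOS encodes the founding member of the family and the best known immediate early gene. It lies at chr14:75278826-75282230 on the plus strand, and a single peak of 3770 bases (chr14:75276361-75280130) reached from 2467 bases upstream to 1302 bases downstream of the start and covered 38.3% of the gene body. Among the 12701 coding genes with a promoter peak, whose median summed promoter peak width was 1760 bases, this ranked at percentile 84.4.

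FOSB encodes a close relative of FOS and is induced by the same signals. Its body lies at chr19:45467995-45475179 on the plus strand, and its promoter peaks were short, 460 bases (chr19:45467471-45467930) and 790 bases (chr19:45468901-45469690). Together they measured 1250 bases, at percentile 27.7. The start site fell in the 970 bases between them. Of coding genes with a promoter peak, 84.4% had the canonical start inside a peak and 1.46% (185 genes) had it in a gap of at most 1 kb between 2 peaks, as FOSB did. The upstream peak began 525 bases and ended 66 bases before the start, and the downstream peak began 905 bases after it. Both peaks also overlapped the annotated body of the coding gene ERCC1, so they cannot be assigned to FOSB alone. Start sites of ERCC1 lay within 3 kb of other peaks in the FOSB window.

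FOSL1 encodes FRA1, an AP-1 subunit best known from invasive carcinoma cells. It lies at chr11:65892049-65900573 on the minus strand and had a peak of 1120 bases over the start (chr11:65899391-65900510) and a second of 1240 bases (chr11:65902451-65903690) that began 2063 bases upstream. Their sum of 2360 bases was at percentile 66.9. The upstream peak had a GC content of 53.3% and the peak at the start 71.9%. FOSL2 encodes FRA2, whose induction after a signal is typically later and longer than that of FOS. It lies at chr2:28392448-28417317 on the plus strand. Its 5400-base peak (chr2:28389511-28394910) ran from 3347 bases upstream to 2052 bases downstream of the start, was the widest promoter peak of the FOS family, and ranked at percentile 92.0. The start sites of FOSL2-AS1, an antisense RNA, lay within 3 kb of the same peak, so the acetylation there cannot be assigned to FOSL2 alone.

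Summed over each gene's promoter peaks, the median width was 4350 bases in the JUN family, 3065 in the FOS family, where FOSB and FOSL1 had 2 peaks each, and 910 for BATF2, the single BATF family gene with one. JUN, the main partner of FOS proteins, lies at chr1:58776845-58784048 on the minus strand. Its peak of 4350 bases (chr1:58781591-58785940) reached from 1893 bases upstream to 2456 bases downstream of the start, covered 34.1% of the body and ranked at percentile 88.0, with a start site of the noncoding gene LINC01135 within 3 kb of it. JUNB, an immediate early subunit that can also oppose JUN, is a gene of 1.83 kb at chr19:12791486-12793315 on the plus strand. It lay entirely within the widest member peak, 8790 bases (chr19:12785681-12794470), which began 5805 bases upstream, ended 2984 bases downstream of the start and ranked at percentile 97.2 (rank 355 of 12701). That peak also lay within 3 kb of a start site of HOOK2, which encodes a microtubule linker protein, so its width cannot be assigned to JUNB alone. JUND encodes the subunit that most cells express without a signal. It lies at chr19:18279694-18281622 on the minus strand and was also wholly covered, by a peak of 4040 bases (chr19:18279341-18283380) at percentile 86.1. Start sites of the noncoding genes MIR3188 and RPL39P38 lay within 3 kb of this peak, so it cannot be assigned to JUND alone.

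In the BATF family, BATF2 (chr11:64987945-64997018, minus strand), an interferon-induced subunit, had the narrowest total of the 8 genes, a single peak of 910 bases (chr11:64996171-64997080) at percentile 13.9. BATF, needed for several T cell lineages, and BATF3, needed for a class of dendritic cells, had no promoter peak at all. Of the 8 members with promoter peaks, 6 had a summed width above the median of 1760 bases for coding genes, and FOSB and BATF2 were narrower. FOSL1 passed the median only by the sum of its 2 peaks, of 1120 and 1240 bases. Counted peak by peak, the 10 promoter peaks of members had a median of 2505 bases (460 to 8790), beside 1270 bases for the 18856 promoter peaks of the series. They had a median GC content of 61.9% and 7.40 CpG dinucleotides per 100 bases, beside 58.2% and 5.27 in promoter peaks of the series. The part that base composition plays in the widths was not tested.

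**Figure D2:**
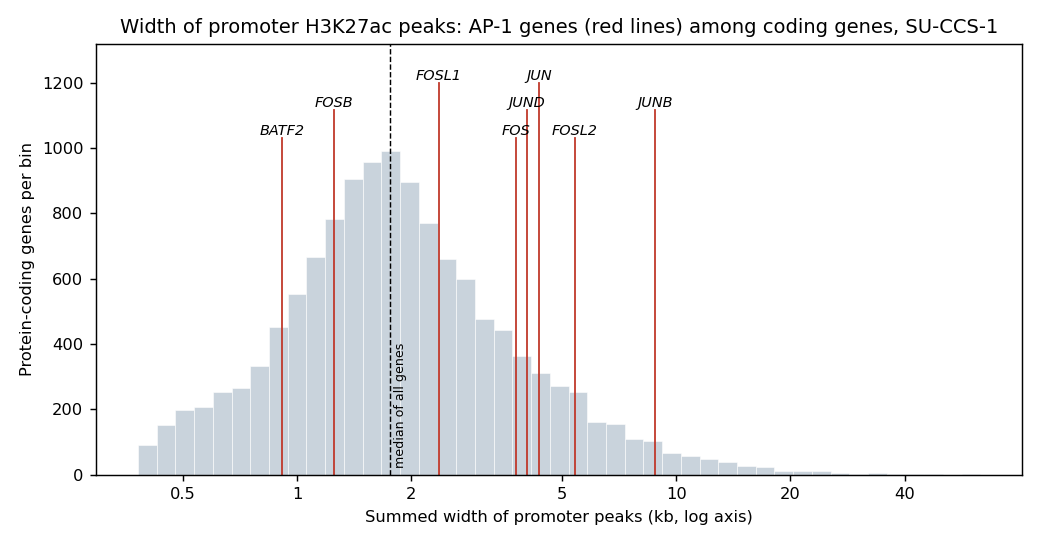
Summed width of promoter H3K27ac peaks (x axis, kb, log scale) of the 12701 protein-coding genes with one (grey bars, genes per bin on the y axis), with the 8 AP-1 genes as red lines and the median of all these genes, 1760 bases, as a dashed line. FOSL1, FOS, JUND, JUN, FOSL2 and JUNB lie to the right of the median and FOSB and BATF2 to its left.

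The second comparison asked what surrounds each gene. The number of peaks at or within 50 kb was 5 for FOS, 9 for FOSB, 7 for FOSL1, 3 for FOSL2, 3 for JUN, 9 for JUNB, 9 for JUND, 0 for BATF, 4 for BATF2 and 1 for BATF3, beside a median of 3 for coding genes. Crowding by other genes went along with these counts. FOS and JUN had no other coding gene within 50 kb, whereas FOSL1 had 10 and JUNB had 8. Set against coding genes with the same number of coding neighbours, the peak numbers of FOS, FOSB and JUND stood at percentiles 87.2, 88.7 and 88.3. JUN, JUNB and FOSL2 stood at percentiles 76.9, 69.1 and 66.4. By the same measure 4 members fell short of genes as crowded. FOSL1, with 7 peaks, lay below a median of 8, BATF2, with 4, below a median of 5, and BATF and BATF3, with 0 and 1, each below a median of 2.

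Most peaks in the windows lay at the start site of some gene, which here means within 3 kb of it. Of the 50 peaks, 10 were promoter peaks of the member itself, including the JUNB peak shared with HOOK2, and 21 were promoter peaks of another coding gene. A further 7 lay at the start of a noncoding gene only, 4 were distal inside another gene and 8 were intergenic. In all, 32 of 50 (64%, interval 50.1 to 75.9) were promoter peaks of another gene, coding or noncoding, beside 64.2% over the windows of all coding genes. With protein-coding genes alone counted as other genes, the share was 44%, beside 52.5%. The share of peaks that sit at the start of a neighbour was thus near that for coding genes at large.

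**Figure D3:**
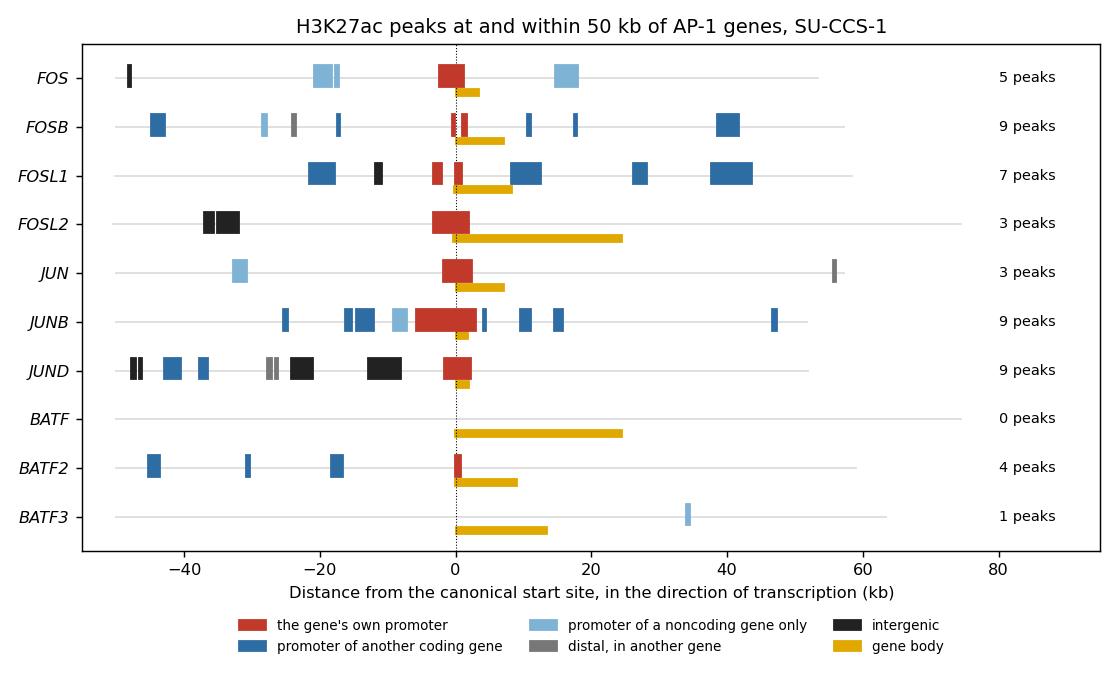
H3K27ac peaks (coloured bars) at and within 50 kb of each AP-1 gene (rows), by distance from the canonical start site in the direction of transcription (x axis, kb), coloured by class as in the key, with gene bodies in yellow and the number of peaks at the right. Wide intergenic peaks (black) stand upstream of FOSL2 and JUND, FOSB and FOSL1 are surrounded by peaks of other coding genes (dark blue), and BATF has no peak.

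The widest peaks away from any annotated start stood upstream of JUND and FOSL2. JUND had 2 wide intergenic peaks, of 4790 bases (chr19:18289731-18294520) and 3170 bases (chr19:18302651-18305820), which began 8.11 kb and 21.0 kb upstream of its start. Among the 11928 distal peaks of the series, whose median was 770 bases, these ranked at percentiles 98.6 and 95.2. Farther upstream, JUND had 2 short peaks inside LSM4, which encodes an RNA-binding protein of the splicing and decay machinery, and 2 short intergenic peaks. FOSL2 had a pair of intergenic peaks separated by 520 bases, of 1480 bases (chr2:28355781-28357260) and 3200 bases (chr2:28357781-28360980), the nearer of them 31.9 kb upstream of the start. The wider one ranked at percentile 95.4 of distal peaks. FOSL1 had 1 intergenic peak of 1040 bases (chr11:65911281-65912320), 10.9 kb upstream.

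FOS stood without coding neighbours but had flanking peaks at noncoding genes. Upstream these were 2670 bases (chr14:75257941-75260610) and 660 bases (chr14:75261011-75261670), and downstream 3480 bases (chr14:75293431-75296910) at the start of LINC01220, 14.6 kb from the FOS start. A short intergenic peak of 490 bases lay 47.8 kb upstream. JUN had 1 peak of 2080 bases (chr1:58814811-58816890) 30.8 kb upstream, at the start of the noncoding gene LINC01135, and 1 of 420 bases beyond its 3' end. Since noncoding starts lie within 3 kb of them, peaks of this kind cannot be assigned to FOS or JUN.

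BATF (chr14:75522455-75546993, plus strand) was the one member with no peak in its window, as were 16.9% of coding genes (3378). Its nearest peaks lay 93.7 kb upstream, at the start of JDP2, which encodes another AP-1 dimer partner, and 138.2 kb downstream. BATF3 (chr1:212686417-212699840, minus strand) had a single peak of 460 bases (chr1:212665361-212665820) 34.0 kb from its start on the downstream side, at the start of the noncoding gene LINC02773. On its other side the nearest peak lay 79.6 kb upstream, inside NSL1, which encodes a kinetochore protein.

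The third comparison joined neighbouring peaks into stitched regions at the usual distance of the ROSE program, with which the study called super-enhancers. In the absence of read signal, the 17049 regions were ranked by the summed width of their peaks. The regions counted as wide were the 879 past the point at which the ranked curve, scaled on both axes, reaches a slope of 1, here 7.97 kb. They are not super-enhancers as called from reads. JUND, JUNB and FOSL1 touched such a region, 3 of 10 members beside 7.67% of coding genes. The region at JUND (chr19:18279341-18341640) joined 10 peaks with 20.1 kb of peak sequence and ranked 146. That at JUNB (chr19:12766081-12807340) joined 8 peaks with 18.6 kb and ranked 173, and that at FOSL1 (chr11:65887831-65921980) joined 5 peaks with 11.6 kb and ranked 444.

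These regions mixed peaks of the members with peaks of their neighbours, LSM4 at JUND, HOOK2, PRDX2 and RNASEH2A at JUNB and CCDC85B, FIBP and DRAP1 at FOSL1. The region at JUND also ran past its 50 kb window, joining 10 peaks where the window held 9. With only peaks within 5 kb joined, JUNB alone stayed past the point (rank 157), beside 5.30% of coding genes, and JUND and FOSL1 did not. With peaks lying wholly near a start site left out, JUNB was again the one member past it (rank 320), beside 2.53%. The promoter peak of JUNB was too wide to be left out there and supplied 8790 bases of the 10.8 kb of its region, whereas that of JUND was left out and its upstream peaks did not reach the gene. FOSL2, JUN and FOS each stood in a region of their own single promoter peak, ranked 1642, 2211 and 2694. FOSB ranked 5475 with 4 joined peaks and BATF2 ranked 12769.

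**Figure D4:**
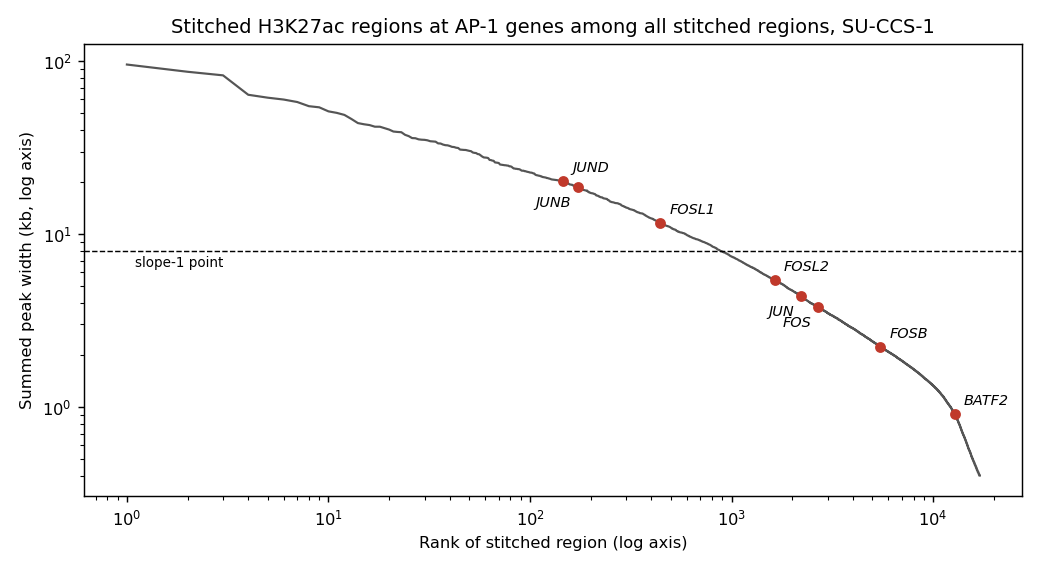
Summed peak width (y axis, kb, log scale) of all 17049 stitched regions against their rank (x axis, log scale), with the regions that touch AP-1 genes in red and the slope-1 point of 7.97 kb as a dashed line. JUND, JUNB and FOSL1 lie above the line, and FOSL2, JUN, FOS, FOSB and BATF2 lie below it. BATF and BATF3 touch no region.

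The last comparison asked whether the peaks at AP-1 genes hold the sequences that ATF/CREB and AP-1 proteins bind. Both strands were searched for TGACGTCA (ATF/CREB), TGAGTCA (AP1), the flexible form TGANNTCA, which includes TGACGTCA, the CArG box, and triplet runs, in which TGA or TCA recurs more than 4 times with at most 5 bases in between. A match is a description of the sequence and not a binding site. Among the 38 promoter peaks in the windows, whether of the member or of another gene, 3 (7.89%) held the ATF/CREB motif, beside 3.59% of promoter peaks of the series. The AP1 motif was in 11 (28.9%) beside 16.5%, the flexible form in 23 (60.5%) beside 37.8%, the CArG box in 5 (13.2%) beside 5.86%, and the triplet runs in 2 (5.26%) beside 5.85%. Peaks in the windows were wider than those of the series, and a wider peak has more room for a match. Per megabase of all peak sequence, the members' peaks held 209 AP1, 59.8 CArG box and 39.8 ATF/CREB matches, beside 150.5, 42.2 and 19.1 in the series, the last resting on 4 matches. On this scale the flexible form was lower, with 398 matches beside 466, as were the triplet runs, 39.8 beside 52.7. These rates pooled promoter and distal peaks. In promoter peaks alone the flexible form stood at 398 matches per megabase beside 387, and in distal peaks at 400 beside 642. The triplet runs stood at 24.1 beside 41.2 in promoter peaks and at 114 beside 78.1 in distal peaks. In the central 200 bases of each peak, where width gives no advantage, the AP1 motif was in 1 of the 50 peaks (2%) beside 2.70% of all peaks. That peak was 1 of the 38 promoter peaks, or 2.63% beside 2.28% of promoter peaks of the series. With 1 such peak, it cannot be said whether the central share was higher or lower than in the series. The ATF/CREB motif was in the central bases of 2 of the 50 peaks (4%) beside 0.40%. Of these, 1 was a promoter peak (2.63% beside 0.578%) and 1 a distal peak (8.33% beside 0.117%). The contrast rests on 2 peaks and was not tested.

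Of the 12 distal peaks in the windows, 1 (8.33%) held the ATF/CREB motif beside 0.981% of distal peaks of the series. The AP1 motif was in 3 (25%) beside 17.5%, the flexible form in 4 (33.3%) beside 45.6%, the CArG box in none beside 5.21%, and the triplet runs in 1 (8.33%) beside 8.15%. With 12 peaks these shares moved by 8.33 points for each peak. The 4 ATF/CREB matches were in the promoter peaks of FOSB and JUND, in the wider intergenic peak upstream of FOSL2, 33.5 kb from the start, and in the promoter peak of VASP, 38.6 kb downstream of the FOSB start. No ATF/CREB or AP1 match lay in the 7 gaps of at most 1 kb between neighbouring peaks of the windows, beside 1.06% and 9.82% of 6395 such gaps of the series. With 7 gaps the Wilson interval for none reaches 35.4%, so this cannot be read as a difference. The flexible form was in 2 of the 7 gaps (28.6%) beside 22.9%.

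The AP1 matches were spread unevenly, and the window of JUNB held 8 of the 21. Of these, 4 stood in a single peak of 2010 bases (chr19:12782321-12784330), at 8.43, 8.37, 8.34 and 8.01 kb upstream of the JUNB start, 3 of them in the stretch printed for JUNB. Across the series 0.257% of peaks (79) held 4 or more AP1 matches. This peak was singled out after its values were seen. It also overlapped the coding gene HOOK2 and lay within 3 kb of the starts of MIR5684 and another noncoding gene. At FOSL1, 2 AP1 matches stood side by side in the intergenic peak, at 11.2 kb upstream, and 1 was at the start site itself. The 2 wide intergenic peaks of JUND held 1 AP1 match each, 12.0 kb and 23.1 kb upstream. The window of FOSB held 5 AP1 matches, none of them in its own promoter peaks, and those of JUN, BATF2 and BATF3 held none in their peaks.

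**Figure D5:**
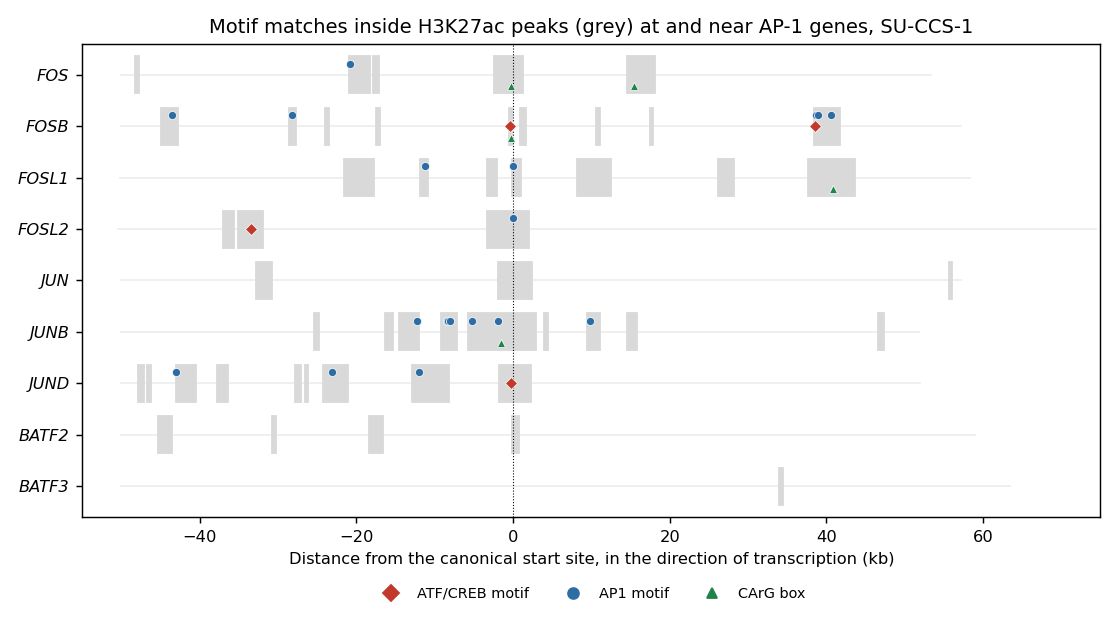
Matches to the ATF/CREB (red diamonds), AP1 (blue circles) and CArG box (green triangles) motifs inside H3K27ac peaks (grey) of the 9 AP-1 genes with a peak, by distance from the canonical start site (x axis, kb). ATF/CREB matches stand just upstream of the start sites of FOSB and JUND, CArG boxes near those of FOS, FOSB and JUNB, and AP1 matches mostly away from start sites, with 4 close together upstream of JUNB.

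Close to the start sites, the 350 bases upstream were searched in 8 members, all but FOSL1 and BATF3. The ATF/CREB motif was in 2 of the 8, FOSB and JUND, beside 2.69% of coding genes. The match of FOSB began 325 bases before the start and that of JUND 200 bases before it, as seen in the printed stretches. The flexible form was in 3, FOSB, JUN and JUND, beside 11.6%. The match of JUN, TGACATCA, began 67 bases before the start, and this variant is the textbook site through which JUN with ATF2 acts on its own gene.

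The shorter TGACG, which is also part of TGACGTCA, was in 6 of the 8, namely FOS, FOSB, FOSL2, JUN, JUNB and JUND, beside 30.7% of coding genes. That share covers all coding genes, with or without a promoter peak. By whole peaks the contrast was small. TGACG was in 24 of the 38 promoter peaks of the windows (63.2%), beside 57.6% of promoter peaks of the series. Per megabase these held 929 matches beside 771. In distal peaks of the windows the share was 25% beside 30.7%. The part that base composition plays here was not tested. Close to the start, TGACG stood 64 and 60 bases before it in FOS and FOSB, 66 in FOSL2 and 137 in JUNB. The CArG box was in 2, FOS (314 bases before the start) and FOSB (274 bases before it), beside 1.69%, and in each a CGTCA followed shortly after it in the printed stretch. The serum response element of FOS is the textbook example of a CArG box bound by SRF. The AP1 motif was in none of the 8, beside 4.18% of coding genes. This search ended at the start site. In FOSL2 an AP1 match lay 4 bases past the start, and in FOSL1, which was not searched here, 1 lay at the start itself. The FOS and JUND stretches lay inside the promoter peak, and the ATF/CREB match and CArG box of FOSB lay in its short upstream peak.

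The other genes of the pathway were taken from 3 lists. All 11 dimer partners, JDP2 and members of the ATF and MAF families, had a promoter peak, as did all 14 kinases and factors that act on FOS and JUN genes or products, beside 63.4% of coding genes. Summed over the promoter peaks of a gene, the partners with the greatest width were MAFK (9500 bases), NRL (5220) and ATF3 (4540), each in 2 peaks, and the median was 2730 bases. By single peaks MAF (3750 bases) followed MAFK (9040) and stood above ATF3 (3080) and NRL (2750). Among the kinases and factors, the greatest sums were those of SRF (3580 bases in 2 peaks), which binds the CArG box, MAP2K7 (2920 in 1), which activates JUN kinases, and COPS5 (2810 in 2), a coactivator of JUN. The median of this list was 1700 bases, close to the 1760 of all coding genes.

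Of 12 textbook targets of AP-1, 6 (50%, interval 25.4 to 74.6) had a promoter peak, also beside 63.4%. The greatest summed widths were those of CCND1 (12000 bases in 2 peaks), the cyclin of the G1 phase, CD44 (4580 in 2), a hyaluronan receptor, and VIM (4210 in 1), the intermediate filament vimentin. The widest single peak of CD44 measured 3630 bases, less than that of VIM. The narrowest sums of the 6 were 520 and 560 bases, not far above the narrowest peak listed. They stood at percentiles 2.98 and 3.96 of coding genes with a promoter peak. No promoter peak was listed for the matrix metalloproteinases MMP1, MMP3 and MMP9, for CXCL8, a neutrophil chemokine, or for PLAU, the urokinase, nor for 1 further target. The interval for 12 genes includes the share of all coding genes.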

How the data were processed

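ChIP-seq of H3K27ac (3 samples) and input (3 samples) was carried out in SU-CCS-1 cells. Reads were aligned by the authors to hg38 with BWA (version 0.7.10-r789), peaks were called with MACS2 (version 2.2.6) in broad mode against input, and denylisted regions were removed. The deposited list has 4 columns, which hold positions and names of merged peaks. The study's methods give 1 nominal sequencing depth for all libraries and the averaging of signal tracks over replicates, whereas the depth of each sample and how the peak list was merged over replicates are not given in the sources used here. All edges are multiples of 10 bases and no peak is under 400 bases, so width depends on the calling as well as on the mark.

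Start sites and bodies were taken from GENCODE version 44, and sequence from hg38. Overlaps, widths, stitching and motif matches were computed with python 3.11.15, numpy 2.4.6 and pysam 0.24.0, and tested on simulated intervals. Canonical starts are those of the annotation's canonical transcripts. Promoter stretches were searched for members with an entry in the RefSeq promoter table. Wilson intervals cover counting only. Members and lists were chosen with earlier results of these data known. All members were named, and of each pathway list the 3 genes with the greatest summed promoter peak width and up to 5 without one. Other genes were named where a peak of a window lay at their start or inside them. Alternative windows, transcripts, width limits, flanks, stitching rules and scanned bases were tried.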

Additional observations from a re-analysis of the deposited data

How the results depend on the processing

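Of 39 alternative values for 15 results, 22 stayed within the limit set for their kind and 17 moved beyond it. Of the 22, 14 came from the 16 alternatives for promoter width. These sum whole peaks under another window, so they seldom change, and the other alternatives mostly moved. The limit was 1.5 times for counts, the 95% Wilson interval for shares, which is narrow for the 20033 coding genes, and an equal value for widths. The count of 8 members with a promoter peak held with windows of 1 or 5 kb, with protein-coding transcripts only and with the start of the gene record only. The share of coding genes was then 61.6%, 64.8%, 61.3% and 58.0%. With the widest 50% of peaks it was 6 members beside 49.0% of coding genes, FOSB and BATF2 being lost, and with the widest 25% it was 5 members beside 26.9%, FOSL1 being lost as well. The 50 peaks in the windows became 32 with a flank of 25 kb, 91 with 100 kb and 28 with the widest 50% of peaks. The share at the start of another gene fell from 64% to 44% when only protein-coding genes were counted. Members at a stitched region past the slope-1 point numbered 3 when ranked by span, 1 with peaks within 5 kb joined and 1 with peaks near start sites left out, beside 9.40%, 5.30% and 2.53% of coding genes. In the central 200 bases of peaks, 2 peaks held the ATF/CREB motif and 1 the AP1 motif, beside 0.40% and 2.70% of all peaks, where whole peaks gave 4 and 14, and adding gaps of at most 1 kb left 4 and 14. The promoter width of FOSL1 was 1120 bases with a window of 1 kb, and that of JUNB was 9250 with 5 kb.

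No paired analysis was possible because the list carries no value per replicate, and no replicate was left out for the same reason. The list does not give the depth behind each peak, and the width of the short peaks of FOSB and BATF2 was not tested against it.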
